A study of Mus musculus with 12 samples.

Results

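Macrophages use L-arginine along competing routes, and the 8 genes described here encode the transporters and enzymes of those routes: Nos2, Arg1, Arg2, Ass1, Asl, Slc7a2, Odc1 and Gch1. Members were all non-control array probes whose deposited gene name was 1 of these 8, each taken on its own, which gave 13 probes of the 55651 used and 8 of the 34810 gene names among them. Of the 13, 4 carried the name Odc1, Ass1 and Gch1 had 2 each, and the other 5 genes had 1 each. The array was a one-colour Agilent mouse expression array, on which each sample's Cy3-labelled RNA is hybridised alone.

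There were 12 arrays, 3 in each of 4 groups. The op/op renal group held kidney cells of homozygous op/op mice, and the WT renal group held those of wild-type mice of the same B6C3Fe a/a-Csf1op/J strain. Both kinds of mice had received 80 mg/kg of glyoxylate for 6 days, so neither kidney group is untreated, and the cells were sorted magnetically for the myeloid surface proteins CD11b and CD11c. The op mutation lies in Csf1, which encodes the growth factor M-CSF, and is carried by the whole animal rather than by macrophages alone. The M1 and M2 groups were bone marrow derived macrophages (BMDM) grown ex vivo, M1 with LPS and GM-CSF and M2 with IL-4 and M-CSF. The labels give no age. Whether replicates were separate animals or cultures is not stated either, so p-values here cover only the scatter among these samples, which could be technical in origin.

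The inducible nitric oxide synthase, encoded by Nos2, turns arginine into nitric oxide and citrulline and needs tetrahydrobiopterin, whose synthesis starts with the product of Gch1. Arginases 1 and 2, encoded by Arg1 and Arg2, split arginine into urea and ornithine, from which the product of Odc1 makes the polyamine putrescine. Slc7a2 encodes a cationic amino acid transporter that brings arginine into the cell, and the products of Ass1 and Asl rebuild arginine from citrulline. In mouse macrophages Nos2 is a textbook marker of LPS or interferon activation and Arg1 of IL-4 activation, while in the kidney Ass1, Asl and Arg2 are also used by tubule cells.

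The 2 arginase probes are shown because they separate a cytosolic from a mitochondrial enzyme with the same reaction. Capitals mark the longest run that the Arg1 and Arg2 probes share, 7 bases of 60.
Arg1 probe: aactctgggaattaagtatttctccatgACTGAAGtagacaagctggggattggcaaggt
Arg2 probe: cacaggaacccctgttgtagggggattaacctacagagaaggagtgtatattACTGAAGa
In the mm9 coordinates of the deposited files the Arg1 probe lies on the minus strand at chr10:24636194-24636253 and the Arg2 probe on the plus strand at chr12:80252972-80253031. The Nos2 probe lies at chr11:78773567-78773626, the Slc7a2 probe at chr8:42002869-42002928, and the Ass1 probes at chr2:31375998-31376057 and chr2:31376068-31376127. The Gch1 probes lie at chr14:47775348-47775407 and chr14:47773797-47773856, and the 60 bases of the Asl probe are spread over 586 bases at chr5:130487964-130488549, so it crosses a gap in the genome alignment. Exon and UTR annotation of mm9 was not used here. One Ass1 probe, A_55_P2004781, is also assigned by its deposited accessions to Gm5424, a transcribed pseudogene on chromosome 10, so signal from the 2 genes cannot be told apart.

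The 4 Odc1 probes are not independent. Probe A_55_P2035102 overlaps A_55_P1995173 over 55 bases with 1 mismatch, but its deposited position is on chromosome 17 whereas the gene is on chromosome 12. A 30-base stretch around that mismatch is shown, with the differing base in capitals.
Odc1 A_55_P1995173, chromosome 12: ccagaagcTtatgttgtgacccattgtgaa
Odc1 A_55_P2035102, chromosome 17: ccagaagcGtatgttgtgacccattgtgaa
A_55_P1982818 shares 22 bases with A_55_P1995173, and A_52_P436238 lies apart from them at chr12:17554799-17554858. The arrays cannot tell the chromosome 17 copy from the gene itself.

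Values are log2 signals relative to the 75th percentile of the same array, so 0 is that percentile and a probe's level is compared between arrays, never with another probe's. A difference was called when its Benjamini-Hochberg adjusted p, from a limma fit over all 4 groups, was under 0.05. A probe entered a comparison only if all 3 arrays of 1 or both groups had it well above background, by the call of the scanner software. Of the 13 probes, 9 were well above background on all 12 arrays. The share of all probes well above background was 63.1% to 68.8% on op/op renal arrays, 76.1% to 79.3% on WT renal arrays, 72.6% to 75.1% on M1 arrays and 64.4% to 65.1% on M2 arrays. Replicates varied more in the kidney, with a median SD per probe of 0.275 in op/op and 0.378 in WT cells, than in the marrow groups, where it was 0.163 in M1 and 0.14 in M2 cells. The fit shares 1 estimate of the spread per probe over the 4 groups. An SE or interval therefore also carries the scatter of groups outside its comparison. The 12 arrays lay on 3 slides: all marrow arrays shared the third, WT replicate 1 was alone on the first, and the other renal arrays shared the second. Slide and tissue can therefore not be told apart, and op/op and M2 arrays sat in the lower row of their slides and WT and M1 arrays in the upper row, so that row and group cannot be told apart either.

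**Figure D1:**
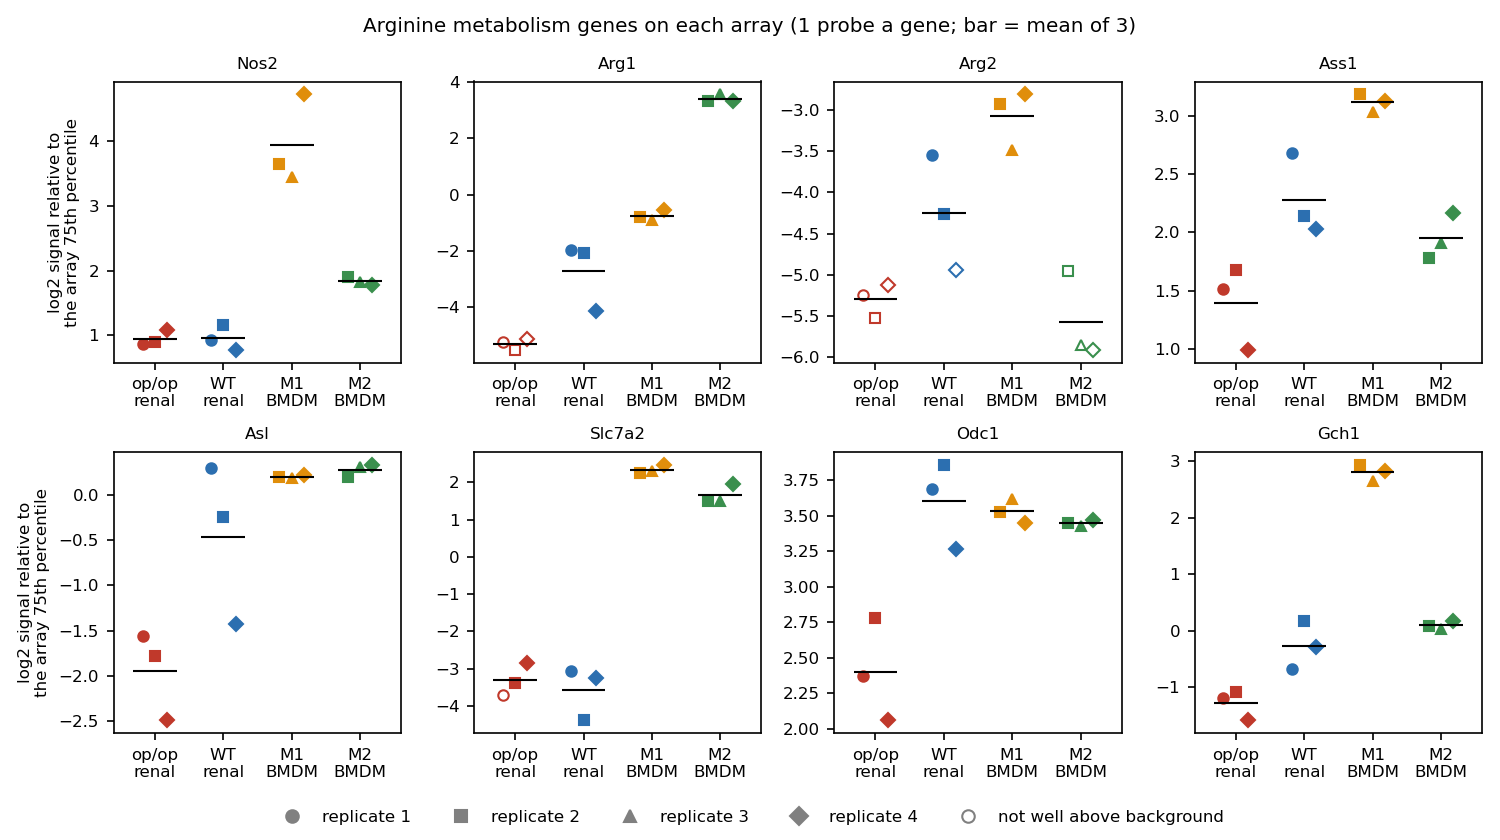
Log2 signal over the 75th percentile of its array (y axis, a scale of its own in each panel) of 1 probe for each of the 8 genes on all 12 arrays, by group (x axis). Each point is an array, its shape the replicate number and an open point a probe not well above background. Bars are group means. Nos2 stood highest in M1 cells and Arg1 in M2 cells, and Slc7a2 was high in both marrow groups. The op/op mean lay below the WT mean for Arg1, Arg2, Ass1, Asl, Odc1 and Gch1, and both means nearly coincided for Nos2. No op/op point of Arg1 or Arg2 was well above background.

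The first comparison asked how kidney myeloid cells of op/op mice differed from those of WT mice. Arg1, Ass1, Asl, Odc1 and Gch1 were lower in op/op cells, while Nos2 and Slc7a2 were not called. Of 12 member probes tested, 10 were lower and 0 were higher, where 56.3% of all 40646 probes tested were called, 27.6% lower and 28.7% higher in op/op cells. The lower probes include all those of Odc1, which are not independent. By gene, 5 of 7 tested were lower and 0 higher. The median log2 difference of the tested members was -1.06, against 0.11 over all probes. How often op/op and WT values lay apart over all probes was not counted. In cells sorted in bulk, fewer cells of a type and less RNA per cell cannot be told apart.

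Macrophage and proximal tubule markers moved in the same direction as the members. Of 10 macrophage markers measured, 8 were lower in op/op cells and 0 higher, and their summed linear level was 61 to 66.9 on op/op arrays, against 101 to 207 on WT arrays. Of 12 proximal tubule markers, 11 were lower in op/op cells, and their summed level was 29.9 to 75.8 on op/op arrays, against 123 to 252 on WT arrays. On the marrow arrays the tubule sum was 1.56 to 2.11, so both kidney sorts carried tubule RNA. Between 11 and 12 of the tubule markers were well above background on each op/op array and all 12 on each WT array, and Csf1r, the M-CSF receptor, did not pass the test (0.11 ± 0.15, SE, adjusted p = 0.524). T cell markers summed to 21.2 to 27.8 on op/op arrays, against 5.74 to 13.7 on WT arrays. Neutrophil, distal nephron and collecting duct, and B cell markers were more often higher than lower in op/op cells. Of 8 neutrophil markers tested, 4 were higher and 0 lower in op/op cells. Of 8 distal nephron and collecting duct markers, 4 were higher and 1 lower. Of 4 B cell markers, 3 were higher and 1 lower. Counts were small for the rest. Of 4 monocyte markers, 1 was higher and 1 lower, with a median of -0.57. Of 3 erythroid markers tested, 0 were higher and 1 lower, with a median of -0.33. The part of these cell types in the member differences was not tested.

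Nos2 was at 0.87, 0.90 and 1.08 in op/op cells, against 0.93, 1.16 and 0.78 in WT cells. The 2 groups overlapped, and the values spanned a narrow range. The limma difference of op/op minus WT was -0.01 ± 0.28 (SE, adjusted p = 0.979), with a 95% interval of -0.62 to 0.60. That width rests mostly on M1 cells, whose SD was 0.68, against 0.11 in op/op and 0.19 in WT cells.

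Arg1 was at -5.24, -5.51 and -5.12 in op/op cells, against -1.97, -2.06 and -4.15 in WT cells. No op/op array had it well above background, all 3 WT arrays did, and among these replicate 4 was by far the lowest, and the groups did not overlap. The group means were -5.29 in op/op and -2.73 in WT cells, and Arg1 was at least 1.46-fold lower in op/op cells (adjusted p = 0.00171). With dim signals raised to the 10th percentile of the signals above background it was 0.897, which gives no fold. The call was also lost with a normexp background correction (-0.39, adjusted p = 0.122) and with that floor applied to all arrays (-0.01, adjusted p = 0.977). The floor is that of each array, at -2.76 to -2.42 on op/op and -3.70 to -3.30 on WT arrays. Every op/op value of Arg1 lay below it and was replaced by it. Without WT replicate 4 the fitted difference was -3.27 (adjusted p = 2.56e-05).

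Arg2 was at -5.24, -5.52 and -5.13 in op/op cells, against -3.55, -4.26 and -4.94 in WT cells. No op/op array and only 2 of 3 WT arrays had it well above background, so it was not tested, although every WT value exceeded every op/op value. It was tested and called lower in op/op cells with no filter on dim probes (-1.05, adjusted p = 0.0359) and without WT replicate 4 (-1.39, adjusted p = 0.00598), but its bound of 0.509 gives no fold.

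The citrulline to arginine enzymes were lower in op/op cells. Asl was at -1.56, -1.78 and -2.49 in op/op cells, against 0.29, -0.25 and -1.43 in WT cells. The groups were separated only narrowly, by WT replicate 4 and op/op replicate 1, and Asl was 2.79-fold lower in op/op cells (-1.48 ± 0.37, SE, adjusted p = 0.007). For Ass1, probe A_55_P2143070 was at 1.51, 1.68 and 0.99 in op/op cells, against 2.68, 2.14 and 2.03 in WT cells. The groups did not overlap, and Ass1 was 1.86-fold lower by this probe (-0.89 ± 0.23, SE, adjusted p = 0.00769). The probe shared with Gm5424 was at 0.51, 0.56 and -0.34 in op/op cells, against 1.32, 0.85 and 0.91 in WT cells. Its difference of -0.78 ± 0.24 (SE, adjusted p = 0.0173) lost its call with only the 2 groups fitted (adjusted p = 0.0737), with slide as a term (-0.63, adjusted p = 0.0569), without op/op replicate 4 (-0.49, adjusted p = 0.0553) and without WT replicate 1 (-0.63, adjusted p = 0.0591).

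Odc1, which encodes ornithine decarboxylase, was lower in op/op cells by all 4 probes. Probe A_55_P1995173 was at 2.37, 2.78 and 2.06 in op/op cells, against 3.69, 3.86 and 3.27 in WT cells. The groups lay apart, and the difference was 2.30-fold lower in op/op cells (-1.20 ± 0.21, SE, adjusted p = 0.00163). Probe A_52_P436238, which shares no stretch with the others beyond 7 bases, was at 0.85, 1.47 and 0.75 in op/op cells, against 2.56, 2.14 and 1.64 in WT cells. It was likewise 2.13-fold lower without overlap (adjusted p = 0.00477). Probe A_55_P2035102 differed by -0.92 ± 0.18 (SE, adjusted p = 0.00239). Probe A_55_P1982818 differed by -1.52 ± 0.43 (SE, adjusted p = 0.0122), but its groups overlapped, since WT replicate 4 at -0.29 lay below op/op replicate 2 at -0.23, and without WT replicate 2 the call was lost (-1.16, adjusted p = 0.0525).

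Gch1, which encodes GTP cyclohydrolase 1, was lower in op/op cells by the brighter probe A_55_P2106175, at -1.18, -1.08 and -1.58 in op/op cells, against -0.67, 0.17 and -0.28 in WT cells. The groups did not overlap, and the difference was 2.04-fold lower in op/op cells (-1.03 ± 0.22, SE, adjusted p = 0.00378). Probe A_52_P298002 was dim in op/op cells (0 of 3 arrays well above background), at -5.52, -5.78 and -5.42, against -2.87, -4.18 and -3.24 in WT cells. It was called lower (-2.14 ± 0.32, SE, adjusted p = 0.000965) but gave no fold, because its bound was under 1, and raising dim signals to the 10th percentile turned the difference to 0.70 (adjusted p = 0.00902). That setting replaced every op/op value with a floor that was higher on op/op than on WT arrays. The turned sign is therefore no measure of Gch1.

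Slc7a2 was at -3.71, -3.38 and -2.84 in op/op cells, against -3.07, -4.38 and -3.24 in WT cells. The groups overlapped, op/op replicate 1 was not well above background, and the difference was 0.25 ± 0.33 (SE, adjusted p = 0.52) with a 95% interval of -0.47 to 0.97. Without WT replicate 2 the difference was -0.16. With the 10th percentile floor it was called higher in op/op cells (0.77, adjusted p = 0.0047). Every op/op value lay below that floor, which was higher on op/op than on WT arrays. That call therefore reflects the floor rather than Slc7a2.

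**Figure D2:**
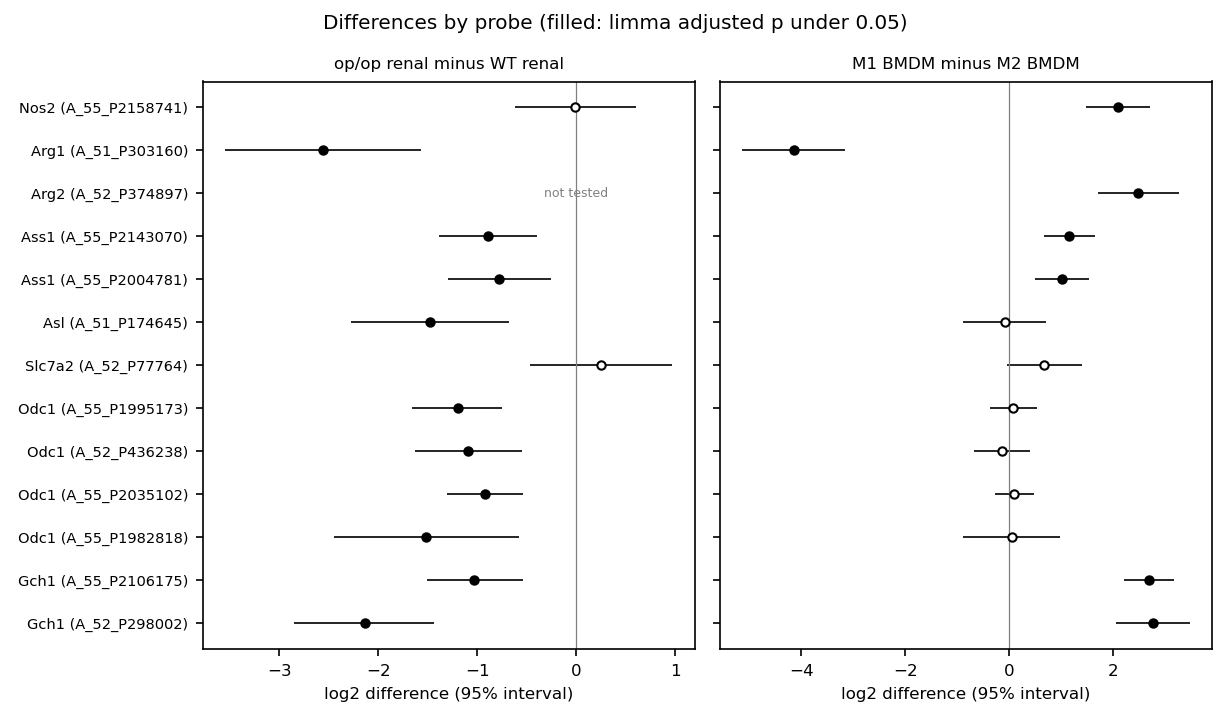
Log2 differences (x axis) with 95% intervals of all 13 probes (rows) for op/op minus WT renal cells on the left and M1 minus M2 BMDM on the right. Filled points passed the adjusted p of 0.05 in limma. All filled points of the left panel lie below 0, between -0.78 and -2.56, and on the right only Arg1 lies below 0 among the filled points.

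The renal arrays were not equal within their groups. WT replicate 4 held the lowest WT value for 9 of the 13 probes and the highest for 0, and op/op replicate 4 held the lowest op/op value for 8 of 13 and the highest for 5. WT replicate 4 also had the lowest macrophage marker sum of the WT arrays, 101, against 131 and 207 on replicates 1 and 2. Op/op replicate 4 had the lowest proximal tubule sum of the op/op arrays, 29.9. The other sum of each array was not the lowest of its group. The proximal tubule sum was 132 on WT replicate 4, against 252 and 123 on replicates 1 and 2. The macrophage sum was 63.1 on op/op replicate 4, against 66.9 and 61 on replicates 1 and 2. Without WT replicate 4, all 10 member probes called in the main fit were still called, and Arg2 was called in addition, which made 11 member probes. Of 41228 probes then tested, 12658 were higher and 12219 lower in op/op cells.

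The second comparison set the marrow macrophages polarized to M1 against those polarized to M2, the reference cells of the design. Nos2, Gch1, Ass1 and Arg2 were higher in M1 cells, Arg1 was lower, and Asl, Odc1 and Slc7a2 were not called. Of 13 probes tested, 6 were higher and 1 lower, where 18% of 39283 probes were called, 8.72% higher and 9.27% lower in M1 cells. The member median was 0.68, against -0.02 over all probes.

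Nos2 was at 3.65, 3.45 and 4.72 in M1 cells, against 1.90, 1.83 and 1.78 in M2 cells. M1 replicate 4 was the highest of all, the groups lay far apart, and Nos2 was 4.29-fold higher in M1 cells (2.10 ± 0.28, SE, adjusted p = 0.000244). Nos2 was well above background on the M2 arrays too. Arg1 was at -0.81, -0.89 and -0.54 in M1 cells, against 3.33, 3.56 and 3.33 in M2 cells. Both sets were tight, and Arg1 was 17.8-fold lower in M1 cells (-4.15 ± 0.45, SE, adjusted p = 5.36e-05).

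The second arginase ran the other way. Arg2 was at -2.93, -3.49 and -2.81 in M1 cells, against -4.95, -5.85 and -5.91 in M2 cells, where no array had it well above background. Arg2 was at least 1.80-fold higher in M1 cells (means -3.08 in M1 and -5.57 in M2 cells, adjusted p = 0.000438), a bound that was 1.04 with the 10th percentile floor. With that floor on all arrays the call was lost (0.05, adjusted p = 0.889), and with normexp the fitted fold was 1.51.

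Gch1 was higher in M1 cells by both probes. Its brighter probe was at 2.94, 2.65 and 2.83 in M1 cells, against 0.09, 0.04 and 0.18 in M2 cells. The groups were tight and far apart, and Gch1 was 6.51-fold higher in M1 cells (2.70 ± 0.22, SE, adjusted p = 5.49e-06). The second probe was at -1.31, -1.70 and -1.61 in M1 cells, against -4.05, -4.85 and -4.04 in M2 cells, where it was not well above background. It was at least 5.23-fold higher in M1 cells (means -1.54 in M1 and -4.31 in M2 cells, adjusted p = 8.84e-05), or at least 3-fold with the 10th percentile floor, and with normexp the fitted fold was 2.58.

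Of Ass1 and Asl, whose products act one after the other, Ass1 was called and Asl was not. Ass1 probe A_55_P2143070 was at 3.19, 3.04 and 3.13 in M1 cells, against 1.78, 1.91 and 2.17 in M2 cells. It was 2.24-fold higher in M1 cells without overlap (1.16 ± 0.23, SE, adjusted p = 0.00367), and the probe shared with Gm5424 was 2.03-fold higher (adjusted p = 0.0109). Asl was at 0.19, 0.18 and 0.22 in M1 cells, against 0.19, 0.31 and 0.33 in M2 cells. The difference was -0.08 ± 0.37 (SE, adjusted p = 0.928) with a 95% interval of -0.88 to 0.72. This SE rests mostly on kidney scatter, with SDs of 0.02 in M1 and 0.07 in M2 cells, against 0.48 in op/op and 0.88 in WT cells. Whether the Ass1 and Asl differences differ from each other was not tested.

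Slc7a2 was at 2.25, 2.29 and 2.47 in M1 cells, against 1.51, 1.51 and 1.95 in M2 cells. Every M1 value exceeded every M2 value, but the difference was not called in the fit of all 4 groups (0.68 ± 0.33, SE, adjusted p = 0.195, 95% interval -0.04 to 1.40). It was called with only the 2 marrow groups fitted (adjusted p = 0.0124) and, in fits of all 4 groups, with array weights (adjusted p = 0.00951), with normexp (adjusted p = 0.0077) and with the 10th percentile floor (adjusted p = 0.0185). The 4 Odc1 probes differed by -0.14 to 0.10 between M1 and M2 cells, with adjusted p-values of 0.778 to 0.957. The widest 95% interval, that of A_55_P1982818, was -0.88 to 0.99, and the narrowest, that of A_55_P2035102, was -0.28 to 0.49. The widest one rests mostly on kidney scatter, with SDs of 0.17 in M1 and 0.18 in M2 cells, against 0.85 in op/op and 0.80 in WT cells.

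RefSeq promoter sequence of the GRCm38.p6 build was at hand for 3 of the 8 genes, and is shown because Ass1 and Gch1 were both higher in M1 cells while Odc1 was not called. Each sequence covers the 250 bases before the start, and capitals mark matches to the motifs searched.
Ass1 promoter: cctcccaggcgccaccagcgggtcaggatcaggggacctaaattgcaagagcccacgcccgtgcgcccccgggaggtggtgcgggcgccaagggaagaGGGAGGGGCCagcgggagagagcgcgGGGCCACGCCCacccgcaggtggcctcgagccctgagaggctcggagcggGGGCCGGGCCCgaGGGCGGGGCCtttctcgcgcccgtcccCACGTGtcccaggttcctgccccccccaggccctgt
Gch1 promoter: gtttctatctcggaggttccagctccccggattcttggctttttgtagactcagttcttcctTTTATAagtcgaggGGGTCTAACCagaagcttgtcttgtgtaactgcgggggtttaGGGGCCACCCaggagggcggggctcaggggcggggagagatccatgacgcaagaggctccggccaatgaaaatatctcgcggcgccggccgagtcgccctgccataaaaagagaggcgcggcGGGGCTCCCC
Odc1 promoter: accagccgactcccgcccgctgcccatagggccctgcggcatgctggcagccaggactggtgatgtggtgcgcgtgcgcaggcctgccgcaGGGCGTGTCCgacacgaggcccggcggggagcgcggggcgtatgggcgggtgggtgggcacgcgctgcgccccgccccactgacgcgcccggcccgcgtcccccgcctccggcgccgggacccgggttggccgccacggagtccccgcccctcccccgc
They lie at chr2:31470020-31470269 on the plus strand for Ass1, chr14:47189414-47189663 on the minus strand for Gch1 and chr12:17544623-17544872 on the plus strand for Odc1. On either strand of the window from 250 bases before to 50 after the start, the loose NF-kB pattern was found 6 times for Ass1, in part in overlapping matches, 3 times for Gch1 and 1 time for Odc1. That pattern occurs in 50.8% of the 32851 promoters of the same length. The E-box CACGTG, found 1 time for Ass1, occurs in 7.15% of promoters, and TATAAA, found 1 time for Gch1 as its reverse complement, in 13.6%. The GAS pattern TTCNNNGAA (8.3% of promoters), the STAT6 pattern (6.95%), the C/EBP pattern TTGCNNAA (10.8%) and the CRE TGACGTCA (1.79%) had 0 matches in the 3 windows. A match to letters is a description of the sequence only.

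**Figure D3:**
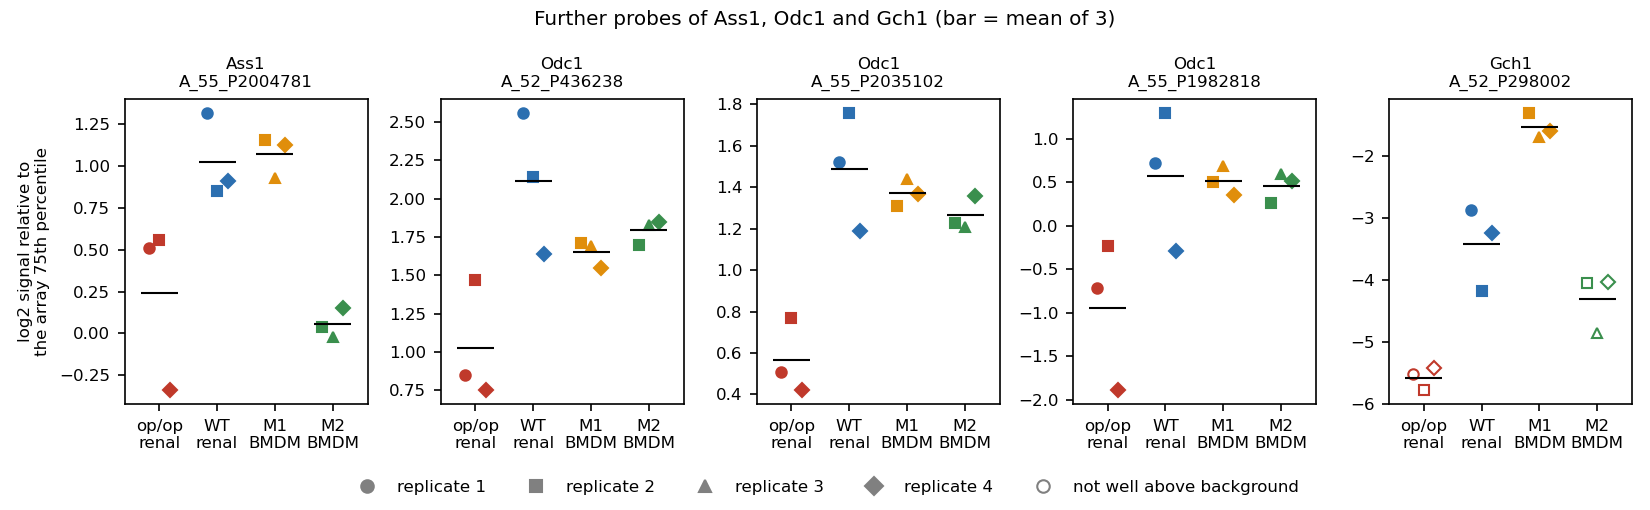
Log2 signal over the 75th percentile of its array (y axis, a scale of its own in each panel) of the other 5 probes of Ass1, Odc1 and Gch1 on all 12 arrays, by group (x axis). Symbols and bars are as in the plot of 1 probe a gene. The 3 Odc1 panels have their lowest mean in op/op cells, while the Ass1 probe has op/op and M2 means of 0.24 and 0.05, both below the WT and M1 means of 1.03 and 1.07.

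The remaining comparisons set the kidney cells beside the marrow macrophages. They share control arrays, and slide and tissue cannot be told apart, so each is given by its own values. Against M1 BMDM, all 13 member probes were lower in op/op cells, where 79.1% of 40895 probes were called, 34.2% lower and 44.9% higher. Against M2 BMDM, 10 of 11 tested were lower and 0 higher in op/op cells, where 81.5% of 38068 probes were called, 35.8% lower and 45.7% higher. In WT cells 7 of 13 were lower and 0 higher than in M1 BMDM, where 57.6% of 42383 probes were called, 23.3% lower and 34.3% higher. Against M2 BMDM, 3 of 12 were lower and 2 higher in WT cells, where 62.2% of 40885 probes were called, 25.9% lower and 36.3% higher.

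Slc7a2 was far lower in both kidney groups than in either kind of marrow cell. It was 50.1-fold lower in op/op cells than in M1 BMDM (-5.65 ± 0.33, SE, adjusted p = 1.34e-07) and 31.2-fold lower than in M2 BMDM. WT cells had it 59.6-fold lower than in M1 BMDM (-5.90 ± 0.33, SE, adjusted p = 2.07e-07) and 37.2-fold lower than in M2 BMDM. No kidney value reached the lowest marrow value of 1.51, the highest being -2.84. The sizes moved with the treatment of dim signals. With normexp the folds in op/op cells were 16.9 against M1 and 10.3 against M2 BMDM, and those in WT cells 22.5 and 13.7. With the 10th percentile floor those in op/op cells were 30 against M1 and 18.7 against M2 BMDM. All of these differences were called.

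Nos2 in op/op cells was 7.95-fold lower than in M1 BMDM (-2.99 ± 0.28, SE, adjusted p = 2.15e-06) and 1.85-fold lower than in M2 BMDM (adjusted p = 0.0106). Nos2 in WT cells was 7.90-fold lower than in M1 BMDM (-2.98 ± 0.28, SE, adjusted p = 6.36e-06) and 1.84-fold lower than in M2 BMDM (adjusted p = 0.0161). Its means in order were 3.94 in M1, 1.84 in M2, 0.96 in WT and 0.95 in op/op cells, with the last pair not separated. Both differences from M2 lost their call with slide as a random block (adjusted p = 0.0758 for op/op and 0.0941 for WT cells), and that of WT cells also with array weights (adjusted p = 0.0711) and without WT replicate 4 (adjusted p = 0.0539).

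Arg1 was at least 102-fold lower in op/op cells than in M2 BMDM (adjusted p = 9.9e-08), or at least 62.9-fold with the 10th percentile floor, and the fitted fold with normexp was 38.9. Arg1 in WT cells was 70.1-fold lower than in M2 BMDM (-6.13 ± 0.45, SE, adjusted p = 1.49e-06), 42.8-fold without WT replicate 4 and 29.7-fold with normexp. Against M1 BMDM it was at least 5.76-fold lower in op/op cells (at least 3.54-fold with the 10th percentile floor), and the fitted fold with normexp was 2.72. In WT cells it was 3.94-fold lower than in M1 BMDM (-1.98 ± 0.45, SE, adjusted p = 0.00298), 2.41-fold without WT replicate 4 and 2.07-fold with normexp. These differences were called under each of those settings. The means in order were 3.4 in M2, -0.75 in M1 and -2.73 in WT cells, with both neighbouring pairs called. The op/op mean of -5.29 came from arrays on which Arg1 was not well above background, so it is not ranked, and its call against WT cells was lost with normexp and with the 10th percentile floor, as given above.

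Arg2 was called lower in both kidney groups than in M1 BMDM, but neither call held in all alternatives. In op/op cells it was at least 1.15-fold lower (means -5.30 in op/op and -3.08 in M1 cells, adjusted p = 0.00013). With the 10th percentile floor that bound was 0.705, which gives no fold. The call was lost with normexp (0.02, adjusted p = 0.921), and with the floor on all arrays Arg2 was called higher in op/op cells (0.51, adjusted p = 0.0261). There every op/op value was replaced by the floor, at -2.76 to -2.42 on op/op arrays, so that call sets the floor against M1 signals. WT cells had it 2.25-fold lower with 2 of 3 arrays above background (-1.17 ± 0.36, SE, adjusted p = 0.0148). That call was lost with normexp (adjusted p = 0.523), with slide as a random block (adjusted p = 0.0909), without WT replicate 4 (adjusted p = 0.0656) and without M1 replicate 4 (adjusted p = 0.056).

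Gch1 by its brighter probe was 17-fold lower in op/op cells than in M1 BMDM (-4.09 ± 0.22, SE, adjusted p = 9.12e-08) and 2.61-fold lower than in M2 BMDM (adjusted p = 0.000109). In WT cells it was 8.35-fold lower than in M1 BMDM (-3.06 ± 0.22, SE, adjusted p = 1.03e-06) and did not pass the test against M2 BMDM (-0.36 ± 0.22, SE, adjusted p = 0.174). Without WT replicate 2 the difference of WT cells from M2 BMDM was called (-0.57, adjusted p = 0.0332). The dimmer probe was at least 3.33-fold lower in op/op cells than in M1 BMDM (at least 2.04-fold with the 10th percentile floor), and with normexp the fitted fold was 2.10. In WT cells it was 3.71-fold lower than in M1 BMDM (1.91-fold with normexp), and its WT and M2 values overlapped, at -2.87, -4.18 and -3.24 in WT cells, against -4.05, -4.85 and -4.04 in M2 cells. The call of that last difference (0.88 ± 0.32, SE, adjusted p = 0.0314) was lost in 8 alternatives, and with the 10th percentile floor the sign changed. Every M2 value lay below that floor and was replaced by it.

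Asl was lower in op/op cells than in either kind of marrow cell and was not called in WT cells in the main fit. Asl was 4.41-fold lower in op/op cells than in M1 BMDM (-2.14 ± 0.37, SE, adjusted p = 0.000212) and 4.65-fold lower than in M2 BMDM (adjusted p = 0.000146). In WT cells it was not called against M1 (-0.66 ± 0.37, SE, adjusted p = 0.142) or M2 BMDM (-0.74 ± 0.37, SE, adjusted p = 0.0982), and without WT replicate 1 both were called (-1.04 and -1.11). Both were also called with replicate number as a block (-0.94, adjusted p = 0.0343 against M1 and -1.02, adjusted p = 0.0231 against M2 BMDM). With array weights the difference from M2 BMDM was called (-0.665, adjusted p = 0.0385). With normexp the op/op folds were 2.73 against M1 and 2.96 against M2 BMDM.

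The 2 Ass1 probes were both lower in op/op cells than in M1 BMDM and differed from each other in the calls of the other 3 kidney against marrow comparisons. Probe A_55_P2143070 was 3.31-fold lower in op/op cells than in M1 BMDM (adjusted p = 2.77e-05), and the probe shared with Gm5424 was 1.78-fold lower (adjusted p = 0.00715), a call lost with slide as a random block (adjusted p = 0.0823). In WT cells A_55_P2143070 was 1.78-fold lower than in M1 BMDM (adjusted p = 0.00813), a call lost with quantile normalization (-0.49, adjusted p = 0.11) and with slide as a random block (-0.79, adjusted p = 0.0598). The shared probe was not called there, at -0.05 ± 0.24 (SE, adjusted p = 0.876), and its WT and M1 values overlapped. Between op/op cells and M2 BMDM, A_55_P2143070 differed by -0.56 ± 0.23 (SE, adjusted p = 0.0363), whereas the shared probe differed by 0.19 ± 0.24 (SE, adjusted p = 0.467). The call of A_55_P2143070 was lost with quantile normalization (-0.44, adjusted p = 0.117), with slide as a random block (-0.44, adjusted p = 0.235), without op/op replicate 4 (-0.36, adjusted p = 0.158), without M2 replicate 3 (-0.59, adjusted p = 0.0663) and without M2 replicate 4 (-0.45, adjusted p = 0.127). Without op/op replicate 4 the shared probe was called higher in op/op cells (0.48, adjusted p = 0.0385). Between WT cells and M2 BMDM, A_55_P2143070 was not called (0.33 ± 0.23, SE, adjusted p = 0.222), while the shared probe was 1.96-fold higher in WT cells (adjusted p = 0.0042).

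Odc1 was lower in op/op cells than in either kind of marrow cell and not called in WT cells in the main fit. Its 4 probes differed by -0.63 to -1.46 between op/op cells and M1 BMDM, all called, and by -0.70 to -1.40 between op/op cells and M2 BMDM, all called. Between WT cells and M1 BMDM they differed by 0.06 to 0.46 with adjusted p-values of 0.127 to 0.912, and between WT cells and M2 BMDM by 0.12 to 0.32. A_52_P436238 was called higher in WT cells than in M1 BMDM with quantile normalization (0.71, adjusted p = 0.0442) and without WT replicate 4 (0.70, adjusted p = 0.0268). A_55_P2035102 was called higher in WT cells than in M2 BMDM with array weights (0.39, adjusted p = 0.0426). The calls of A_55_P1995173 and A_55_P2035102 in op/op cells were kept in all 18 alternatives run against M1 and against M2 BMDM. With slide as a random block A_55_P1982818 lost its calls in op/op cells against M1 (adjusted p = 0.0754) and M2 BMDM (adjusted p = 0.0828), and so did A_52_P436238 (adjusted p = 0.234 and 0.126). The call of A_52_P436238 against M1 (-0.63 ± 0.25, SE, adjusted p = 0.0348) was also lost with quantile normalization (adjusted p = 0.118) and with the replicate block (adjusted p = 0.0538). It was lost too without any 1 of op/op replicates 1 and 4 or of the 3 M1 replicates, at adjusted p-values of 0.0545 to 0.122. Against M2 BMDM the call of this probe was lost without op/op replicate 4 (adjusted p = 0.0518).

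**Figure D4:**
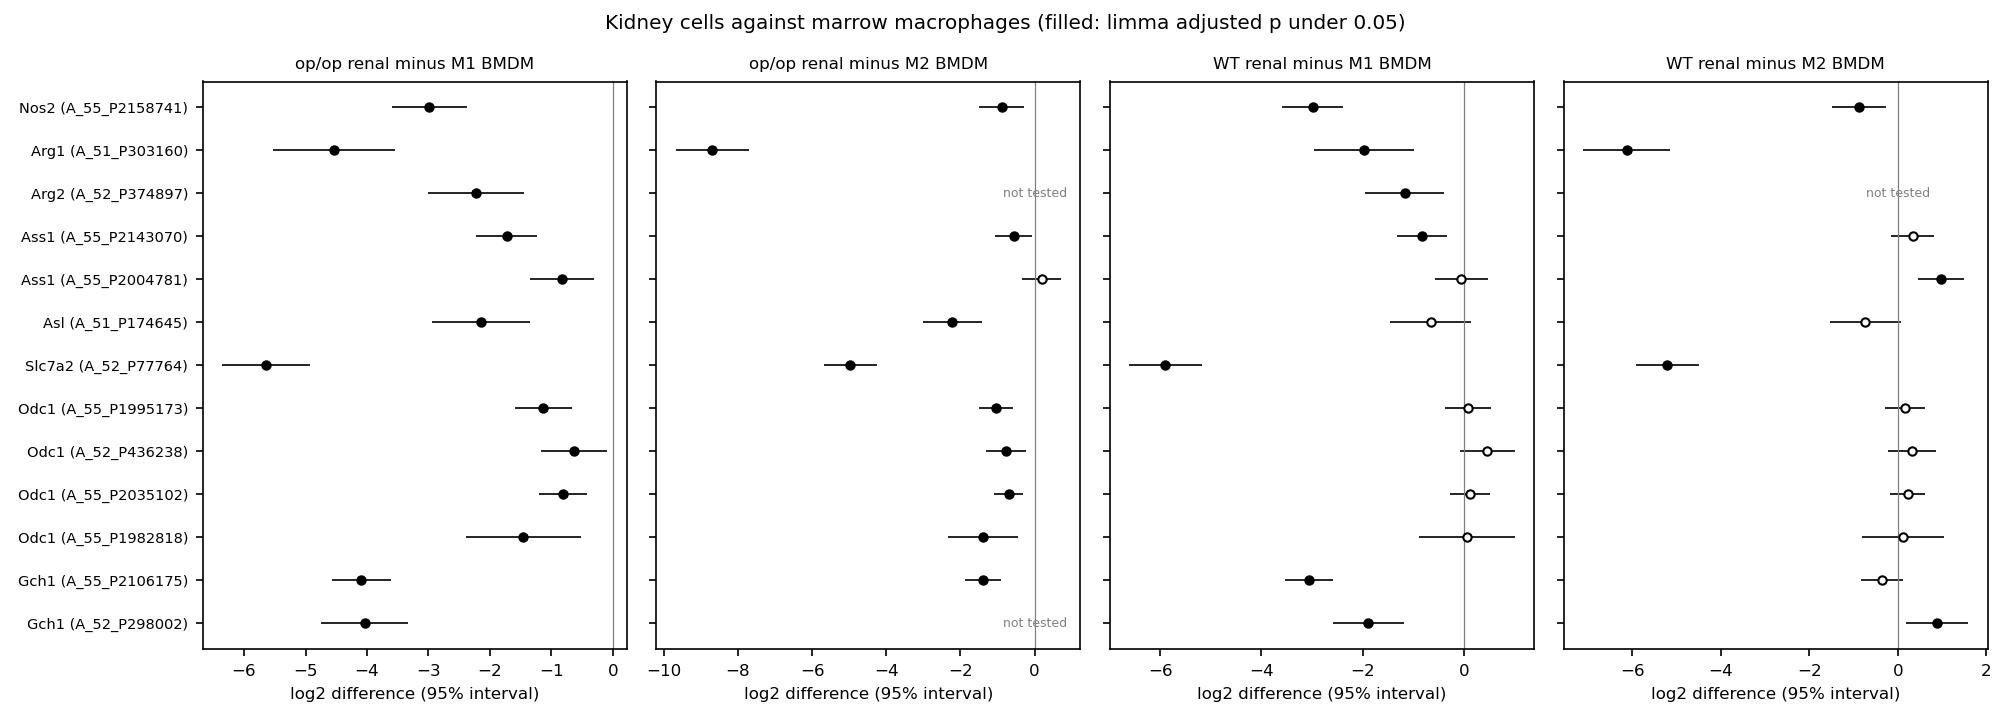
Log2 differences (x axis) with 95% intervals of the 13 probes (rows) in 4 panels: op/op minus M1, op/op minus M2, WT minus M1 and WT minus M2. Filled points passed the adjusted p of 0.05 in limma, and probes dim in both groups are marked as not tested. The op/op panels lie almost wholly below 0, Slc7a2 lies between -4.97 and -5.90 in the 4 panels, and the Odc1 intervals of the WT panels cross 0.

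The wider pathway was described by lists of 62 genes around the members, with 1 probe a gene, of which 60 were on the array. Between op/op and WT cells 56 were tested, of which 9 were higher and 26 lower in op/op cells, where 28.7% of all probes tested were higher and 27.6% lower. Between M1 and M2 cells 53 were tested, of which 3 were higher and 13 lower in M1 cells, where 8.72% of all probes were higher and 9.27% lower. The list counts below are to be read against these shares, and lists of 6 to 16 genes give coarse shares. Genes of small counts beyond the 4 with the smallest adjusted p of each comparison were chosen for naming after their values were seen.

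Among genes of arginine uptake and supply, 0 of 8 tested were higher and 5 lower in op/op cells, with a median of -1.03. Slc7a7, which encodes an exporter of cationic amino acids, was at -0.15, -0.08 and -0.21 in op/op cells, against 1.44, 1.85 and 1.43 in WT cells. The groups did not overlap (-1.73 ± 0.18, SE, adjusted p = 0.000288). Its partner chain Slc3a2 was lower too (-1.19, adjusted p = 0.0038), as were Glud1 (-1.11) and the mitochondrial ornithine carrier Slc25a15, which was not well above background in op/op cells. Slc7a1, the widely expressed arginine transporter, was not called (-0.13 ± 0.25, SE, adjusted p = 0.658). In M1 against M2 cells, 1 of 8 was higher and 2 lower. Slc7a7 was higher in M1 cells, at 3.65, 3.28 and 3.34, against 1.93, 1.67 and 1.98 in M2 cells (1.56 ± 0.18, SE, adjusted p = 8.29e-05). Slc7a1 (-1.34, adjusted p = 0.00271) and Glud1 (-0.64, adjusted p = 0.0309) were lower in M1 cells.

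Among polyamine genes, 4 of 16 were higher and 6 lower in op/op cells, with a median of -0.33, and the count of higher genes lay near the share over all probes. Paox, which encodes an oxidase of acetylated polyamines, was at 1.74, 1.45 and 1.41 in op/op cells, against 2.56, 3.1 and 2.92 in WT cells. The groups lay apart (-1.33 ± 0.18, SE, adjusted p = 0.00069). The antizyme gene Oaz1 (-0.94) and the antizyme inhibitor gene Azin1 (-1.23) were both lower, whereas the antizyme gene Oaz2 (0.73), Sms (1.11), Agmat (1.63) and Adc (0.70) were higher in op/op cells. In M1 against M2 cells 1 of 16 was higher and 4 lower. Paox was lower in M1 cells, at 2.76, 2.6 and 2.82, against 4.08, 3.97 and 3.87 in M2 cells (-1.24 ± 0.18, SE, adjusted p = 0.000478). Srm (-1.09), Sat1 (-1.11) and Agmat (-1.12) were also lower, and Smox, which encodes spermine oxidase, was higher in M1 cells (1.33 ± 0.29, SE, adjusted p = 0.00714).

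Of 7 genes between ornithine, proline and glutamate, 1 was higher and 4 were lower in op/op cells, with a median of -0.82. Pycr1, for a last step of proline synthesis, was the higher one (1.29 ± 0.36, SE, adjusted p = 0.0122), and Prodh, for proline breakdown, was lower (-1.48 ± 0.31, SE, adjusted p = 0.00364), as were Pycrl and Aldh4a1. Pycrl was at -4.78, -3.72 and -4.67 in op/op cells, on each array below the lowest signal called well above background. In M1 against M2 cells 0 were higher and 1 lower, Prodh (-1.50, adjusted p = 0.00584). Oat, which encodes ornithine aminotransferase, was not called in op/op against WT cells (-0.55, adjusted p = 0.067) or in M1 against M2 cells (-0.35, adjusted p = 0.378).

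Of 8 creatine and dimethylarginine genes, 1 was higher and 4 were lower in op/op cells, with a median of -0.63. Gatm, which encodes the enzyme that moves the amidino group of arginine to glycine, was at -1.74, -1.31 and -1.31 in op/op cells, against 0.21, 0.65 and 0.17 in WT cells (-1.80 ± 0.19, SE, adjusted p = 0.000326). Prmt1, for a protein arginine methyltransferase, was at 0.86, 0.94 and 0.78 in op/op cells, against 1.97, 1.96 and 2.06 in WT cells (-1.13 ± 0.14, SE, adjusted p = 0.000561). Neither gene overlapped between the groups, and Gamt, for the next step after Gatm, was higher in op/op cells (0.88, adjusted p = 0.0027). In M1 against M2 cells 0 were higher and 3 lower. Gatm was at -1.56, -1.50 and -1.28 in M1 cells, against 0.84, 0.62 and 0.80 in M2 cells (-2.20 ± 0.19, SE, adjusted p = 8.88e-06), and the creatine transporter gene Slc6a8 (-0.76) and Ddah2 (-1.58) were lower too.

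Of the other tetrahydrobiopterin genes, 6 were tested in M1 against M2 cells, and 0 were higher and 2 lower in M1 cells. Their median was -0.65, and the count of higher genes lay near the share of 8.72% over all probes. Qdpr, which encodes the reductase that regenerates tetrahydrobiopterin, was at 1.25, 1.03 and 0.94 in M1 cells, against 3.25, 3.17 and 3.24 in M2 cells. It was lower in M1 cells without overlap (-2.14 ± 0.16, SE, adjusted p = 2.95e-06), while Pts (-0.03) and Spr (-0.34), for the 2 steps after Gch1, were not called. In op/op against WT cells, 0 of 7 were higher and 4 lower: Qdpr (-0.78), Pts (-0.79), Pcbd2 (-0.83) and Spr (-0.53).

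Among the other NO synthases and partners, 3 of 10 were higher and 3 lower in op/op cells, with a median of -0.38, and both counts lay near the shares over all probes. The higher ones were Nos3, the endothelial synthase gene (1.17 ± 0.40, SE, adjusted p = 0.0287), Nos1, the neuronal one (0.61, adjusted p = 0.0155), and Nos1ap (0.47), and the lower ones included the calmodulin genes Calm2 (-0.77) and Calm3 (-1.09). Beside Nos3, the summed level of 5 endothelial markers was 27 to 38.9 on op/op arrays, against 18.8 to 25.6 on WT arrays, and its part in the difference was not tested. In M1 against M2 cells 1 of 8 was higher, Calm3 (0.53), and 1 lower, Nostrin (-1.50), again near those shares.

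**Figure D5:**
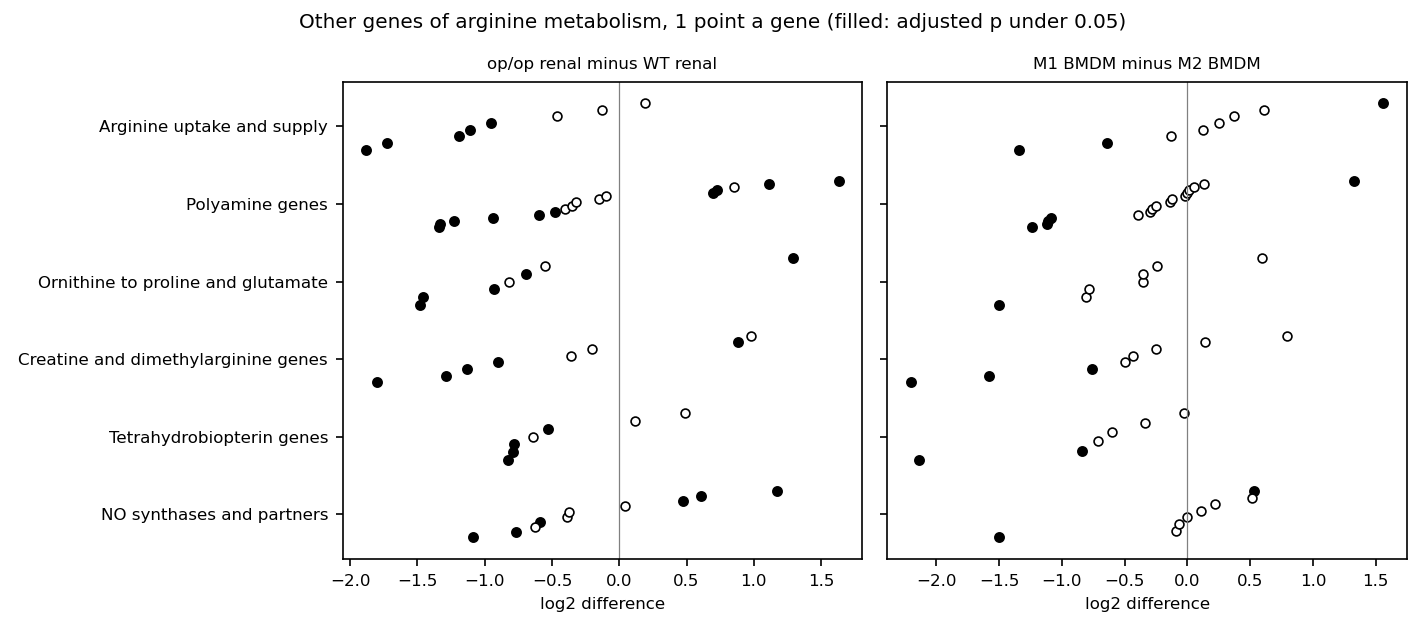
Log2 differences (x axis) of the tested genes of 6 lists of arginine metabolism (rows, 1 point a gene, spread vertically for legibility) for op/op minus WT renal cells on the left and M1 minus M2 BMDM on the right. Filled points passed the adjusted p of 0.05 in limma. On the left 9 filled points lie above 0 and 26 below, on the right 3 above and 13 below.

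Across the 12 arrays, the probes whose levels ran most like those of each member were found among 21629 probes with a gene symbol, as a description over 4 groups that differ in tissue. For Nos2 they were probes of Lpar1 (Pearson r = 0.98), Rnf135 (0.976) and Samd9l (0.975), and for Gch1 those of Chmp4b (0.993), Nt5c3 (0.99) and Dtx3l (0.988). For Arg1 they were Casp6 (0.994), Naa50 (0.994) and Exoc4 (0.993), and for Arg2 Kansl1l (0.956), Smox (0.952) and Cd300lf (0.947). Slc7a2 ran with Gpc1 (0.997), Col5a1 (0.991) and Igf2bp2 (0.989), a set whose likeness is dominated by the split between kidney and marrow. Ass1 ran with Abcc5 (0.98), Asl with Sfi1 (0.984) and Odc1 with Rraga (0.98). With so many probes searched, high values arise readily over 12 points that share 4 group means.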

How the data were processed

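RNA of 12 samples was hybridised to one-colour Agilent mouse arrays. Per the labels' protocols, an RNeasy Micro kit gave the RNA, which an Ovation PicoSL WTA V2 kit turned into cDNA before Cy3 labelling. The spot intensity values are background-subtracted output of Agilent Feature Extraction 10.7.3.1, per the file headers. The deposited value table holds log2 values of the same arrays; its columns followed the log2 scanner signals at r = 1, with medians of -1.88 to -2.47, and it served as an alternative. The basis of its scaling was tested on the files only.

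From the deposited intensity values, spots of a probe were averaged and each array's log2 signals were set against its 75th percentile. Of 55681 non-control probes, 30 with an outlier flag were left out. No spot was saturated. The fit used limma 3.58.1 in R 4.3.3 on 12 arrays in 4 groups without covariates, with Benjamini-Hochberg adjustment over all probes tested in a comparison. For a probe well above background on 0 of a group's arrays, the fold is a lower bound against, on each array, the higher of its own signal and the lowest signal called well above background. A list's gene was represented by its probe with the highest mean. Probes named by rule were all member probes and up to 4 list genes with the smallest adjusted p in each main comparison. The 3 probes most like each member were also sought, and for Ass1, Asl and Odc1 only the most alike is given. Further list genes were named after their values were seen. Some list genes are counted but not reported here by name. The members and lists were chosen with earlier results of these data known. All 8 members matched RefSeq genes. Motifs were searched with Python 3.11.15.

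On simulated data with 200 changed probes, 22.7% of 2-fold and 80.9% of 4-fold changes were recovered in op/op against WT (5 false calls), and 36.6% and 75.3% in M1 against M2 (2 false calls). Far more probes were called in the data, 22897 in op/op against WT and 7066 in M1 against M2. The adjusted p depends on how many probes change, so these recovery and false-call figures do not carry over to the data. Alternatives were normexp (offset 50), quantile normalization, median centring, the deposited values, filtering on all 12 arrays or not at all, raising dim signals to the 10th percentile of those above background, fitting only the 2 groups, eBayes with trend, array weights, slide as a term or random block (statmod 1.5.0), replicate number as a block, calls of at least 2-fold and leaving out each array. Same-numbered samples of op/op and WT, and of M1 and M2, did not deviate together, so the numbers were not taken as pairs. The number of arrays limits the precision.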

Additional observations from a re-analysis of the deposited data

How the results depend on the processing

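Over all 6 comparisons, 1242 of 1324 alternative values of member probes kept their direction and side of the threshold, 45 lost a call, 15 gained one and 22 changed sign. The number of all probes called in op/op against WT (22897) was 10546 at 2-fold and 13727 with only the 2 groups, and 16452 to 24877 leaving out an array. In M1 against M2 (7066) it was 4386 at 2-fold, 11083 with the 10th percentile floor, 14569 with only the 2 groups and 15246 with array weights, and 4962 to 5191 leaving out an array. At 2-fold it was 15849 in WT against M1 (24405) and 16468 in WT against M2 (25431). Called member probes in M1 against M2 (7) and WT against M1 (7) numbered 4 and 3 with the filter on all 12 arrays, which tests 9 member probes. In WT against M2 (5) they numbered 2 at 2-fold, 2 with that filter and 3 with slide as a random block, and in op/op against M2 (10) 6 at 2-fold and 6 with slide as a random block. In op/op against WT, 8 member probes were lower and 0 higher with normexp, and 8 were lower and 2 higher with the 10th percentile floor. Leaving out an array gave 9 to 11 called members in op/op against WT, 7 in M1 against M2, 6 to 8 in WT against M1, 4 to 6 in WT against M2, 12 to 13 in op/op against M1 and 9 to 10 in op/op against M2.

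Most sign changes were of differences near 0. Leaving out an array gave -0.098 to 0.093 for Nos2 and -0.158 to 0.499 for Slc7a2 in op/op against WT, below 0 for Slc7a2 without WT replicate 2 and above 0 for Nos2 without op/op replicate 1 or 2 or WT replicate 2. For Odc1 A_55_P1982818 it gave -0.045 to 0.135 in M1 against M2, -0.301 to 0.493 in WT against M1 and -0.245 to 0.55 in WT against M2. In WT against M1 it gave -0.053 to 0.244 for Odc1 A_55_P1995173, -0.015 to 0.269 for A_55_P2035102 and -0.194 to 0.042 for Ass1 A_55_P2004781. There, median centring gave -0.015 for A_55_P1982818 and -0.002 for A_55_P1995173, and quantile normalization 0.075 for A_55_P2004781, which was -0.004 in op/op against M2 with the replicate block. Signs of dim probes turned with the floor: Gch1 A_52_P298002 was 0.70 in op/op against WT and -0.145 in WT against M2, and Arg2 in op/op against M1 was 0.505, and 0.019 with normexp. The floor was -2.76 to -2.42 on op/op, -3.70 to -3.30 on WT, -3.99 to -3.87 on M1 and -3.16 to -3.10 on M2 arrays. It replaced every op/op value of these probes and every M2 value of that Gch1 probe. The floored signs therefore reflect floors that differ between groups. Why the other values moved was not tested.

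With the replicate number as a block, 10 member probes in op/op against WT and 7 in M1 against M2 were called, as without it. Same-numbered deviations correlated at -0.14, 0.08 and -0.06 in op/op and WT and at -0.05, 0.12 and 0.08 in M1 and M2. Normexp gave 14941 probes higher and 8841 lower in op/op against WT (11680 and 11217 without it), and quantile normalization 10738 and 11374 in WT against M1 (14536 and 9869 without it). The median of all probes in op/op against WT was -0.008 with quantile normalization, 0.202 with normexp and 0.353 with the floor (0.107 without them). Signals near background limit Arg1, Arg2 and Slc7a2 in the kidney, Arg2 in M2 cells and the dimmer Gch1 probe.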
